A study of Mus musculus with 4 samples.

Results

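TGF-beta is made as a latent complex that must be opened before it can signal, and this step is controlled on the surface of regulatory T (Treg) cells. The 10 genes described here cover that route from ligand to nucleus: the ligand gene *Tgfb1*, the docking and activation genes *Lrrc32* and *Itgb8*, the receptor genes *Tgfbr1* and *Tgfbr2*, the signal-carrying SMAD genes *Smad2* and *Smad3*, and the genes of the inhibitors *Smad7*, *Ski* and *Skil*. They were named by their place in the pathway, not by their values, and were found by symbol among 47729 Ensembl genes. All 10 passed the filter on low counts, with which 12536 genes were tested.

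RNA was sequenced from 4 libraries of Treg cells sorted as CD25+YFP+ from C57BL/6 female mice. In these mice a YFP and Cre reporter sits in the *Foxp3* locus, so that Cre is made only where *Foxp3* is on. The WT group had *Tfrc* +/+ *Foxp3* YFP-Cre/+ mice and the TfR1-deficient group *Tfrc* fl/fl *Foxp3* YFP-Cre/+ mice, with 2 libraries each. Both groups carry the reporter on 1 X chromosome, so X inactivation leaves the females with Treg cells that do not make Cre, and the sort for YFP leaves those out. *Tfrc* encodes transferrin receptor 1 (TfR1), through which cells take up iron bound to transferrin, and the comparison asks how its loss changes the RNA of Treg cells. The labels name the spleen as the source, whereas a legend of the study adds lymph nodes. They give neither the number of mice behind a library nor an age, and the study describes its mice in general as age-matched young animals. The p-values measure only the spread between these libraries.

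Totals ran from 10841939 to 17278448 counts per library, and the lowest count of any of the 10 genes was 118. *Tfrc* was at 50.8 and 54.1 CPM (counts per 1000000 counts of the library, with TMM factors that balance the libraries on most genes) in WT and at 56.1 and 48.3 CPM under the TfR1-deficient label, values that overlapped between the groups. Counts per gene do not show single exons, and every direction below rests on the labels alone. The defining markers *Cd3e*, *Cd4*, *Foxp3* and *Il2ra* were each abundant in all 4 libraries. WT replicate 1 and TfR1-deficient replicate 2 stood apart: the summed level of 14 macrophage and monocyte markers was 779 and 2572 CPM there, while it was 28.7 in WT replicate 2 and 32.2 in TfR1-deficient replicate 1. All 14 were higher in the macrophage-rich library of each genotype, among them *Csf1r*, at 123.8 CPM against 1.97 in WT and 371.4 CPM against 4.96 in the other genotype. Platelet markers, of interest since platelets carry both *Tgfb1* and *Lrrc32*, summed to between 1.88 and 3.37 CPM, with *Gp1bb*, *Gp6* and *Treml1* at 0 in all libraries. B cell markers summed to between 25.4 and 42.7 CPM and erythroid markers to between 16.9 and 278.2 CPM. In bulk RNA, fewer cells of a type and less RNA per cell cannot be told apart.

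The latent ligand consists of TGF-beta and the propeptide that encloses it. GARP, the product of *Lrrc32*, holds this complex on the Treg surface, and the integrin alphav-beta8, whose beta chain is the product of *Itgb8*, pulls it open. The freed ligand binds the type II receptor (*Tgfbr2*), which activates the type I receptor (*Tgfbr1*). That kinase phosphorylates SMAD2 and SMAD3, which enter the nucleus with SMAD4. SMAD7 blocks the receptor, and SKI and SnoN (the product of *Skil*) hold back SMAD-driven transcription. In T cells the pathway restrains activation and helps induce and keep *Foxp3*, and Treg cells are a known source of active ligand.

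None of the 10 genes passed the test between the genotypes. In edgeR's quasi-likelihood test 0 of the 10 were called lower and 0 higher at an unadjusted p under 0.05 with a log2 fold change of at least 0.5, where 2.48% of all genes tested were called lower and 1.6% higher. At a Benjamini-Hochberg adjusted p under 0.05, edgeR called 0% of all genes and 0 of the 10. DESeq2's Wald test also called 0 of the 10 at the unadjusted p, where it called 4.09% of all genes in either direction, and 0 of the 10 at the adjusted p. Log2 fold changes of TfR1-deficient over WT were below 0 in 8 of 10 and had a median of -0.28, beside 0.01 over all genes tested. Without TfR1-deficient replicate 2 that median was -0.07, without TfR1-deficient replicate 1 it was -0.47, and between the pair of libraries with few macrophage transcripts it was 0.001. Adjusted p-values below are from that edgeR test unless DESeq2 is named.

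**Figure D1:**
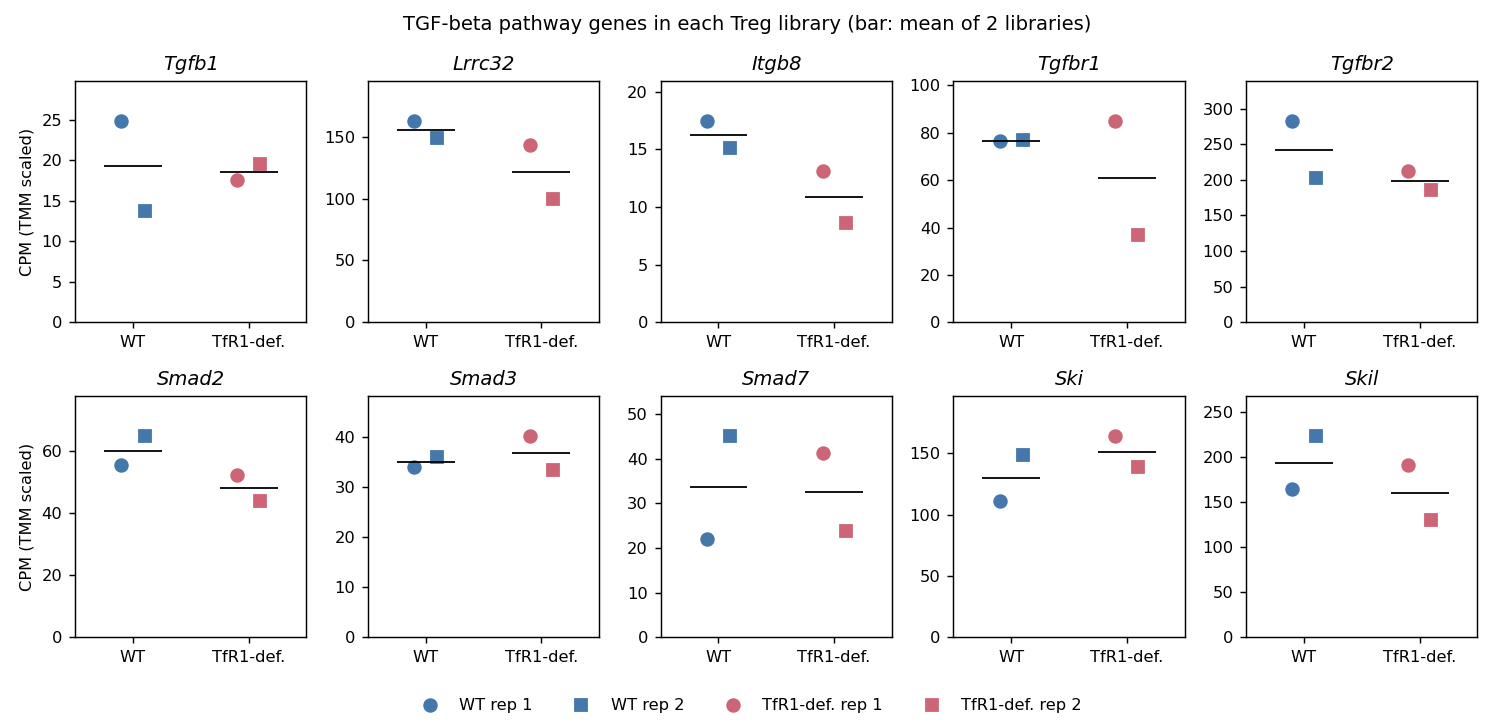
CPM (vertical axes, starting at 0) of the 10 genes in each library, with WT in blue and TfR1-deficient in red, replicate 1 as circles, replicate 2 as squares and the mean of each pair as a bar. The groups are separate for *Lrrc32*, *Itgb8* and *Smad2* and overlap for the other 7 genes.

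In 3 of the 10 genes, *Lrrc32*, *Itgb8* and *Smad2*, the groups did not overlap and WT was the higher one, an arrangement found in 18.9% of all genes tested. The reverse held for 0 of the 10 and for 16.0% of all genes. Summed T cell and Treg markers separated by genotype as well, at 5142 and 4931 CPM in WT and, under the TfR1-deficient label, at 4300 and 3830 CPM. WT was the higher group without overlap in 5 of those 8 markers, *Foxp3* among them, and 1 (*Ctla4*) was called lower. Their part in the values of the 3 genes was not tested. For a single value an exact permutation test of 2 against 2 cannot go below p = 0.333.

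*Lrrc32* (ENSMUSG00000090958, chromosome 7, 98489305 to 98501831, GRCm38) was the most abundant of the 3 genes of the ligand, its docking and its activation among the 10. It was at 162.5 and 149.1 CPM in WT and at 143.7 and 99.7 CPM under the TfR1-deficient label. The 2 groups did not overlap, with TfR1-deficient replicate 1 close to WT and replicate 2 well below it. The log2 fold change was -0.36 (standard error 0.21, 95% interval -0.90 to 0.18, edgeR adjusted p = 0.934). Without TfR1-deficient replicate 2 it was -0.12, and without TfR1-deficient replicate 1 it was -0.65, past the unadjusted call (edgeR adjusted p = 0.999).

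*Itgb8* (ENSMUSG00000025321, chromosome 12, 119162803 to 119238276, GRCm38) had the largest log2 fold change of the 10 genes in size. Its level was 17.4 and 15.1 CPM in WT and 13.1 and 8.62 CPM under the TfR1-deficient label. All 4 values fall in the same order as for *Lrrc32*, an order found in 5.18% of all genes tested. The log2 fold change was -0.58 (standard error 0.31, 95% interval -1.37 to 0.22, edgeR adjusted p = 0.921). It was -0.92 without TfR1-deficient replicate 1, -0.31 without TfR1-deficient replicate 2 and -0.20 between WT replicate 2 and TfR1-deficient replicate 1, where macrophage transcripts were few. The genes nearest to *Itgb8* in pattern among 8458 others, by Euclidean distance of centred log2 CPM over the 4 libraries, were *Ccrl2* (0.0593), *Snrnp200* (0.0775) and *Nbas* (0.0781).

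*Tgfb1* (ENSMUSG00000002603, chromosome 7, 25687002 to 25705077, GRCm38), the gene of the ligand, was at 24.8 and 13.7 CPM in WT and at 17.6 and 19.5 CPM under the TfR1-deficient label. Both of these lay between the WT values, so the replicates of WT differed more from each other than the genotypes did. The log2 fold change was -0.06 (standard error 0.34, 95% interval -0.92 to 0.81, edgeR adjusted p = 0.994). *Tgfb1* was the member that was higher in both macrophage-rich libraries than in both others, as were 22.9% of all genes tested. The part of macrophage RNA in its values was not tested. Without WT replicate 1 its log2 fold change was 0.45, and between the pair of libraries with few macrophage transcripts it was 0.35. The ratio of *Lrrc32* to *Tgfb1* counts within a library, which does not depend on library scaling, was 6.55 and 10.9 in WT and 8.18 and 5.11 under the TfR1-deficient label. These ratios overlapped between the genotypes (difference of log2 ratios -0.39, exact two-sided permutation p = 0.667).

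Sequence before the RefSeq start site is shown for the ligand gene *Tgfb1* and for *Itgb8*, the member with the largest fold change, because SMAD proteins bind short DNA elements and the pathway feeds back on its own genes. In each, the 250 bases before the start were searched on both strands for the SMAD box CAGAC and its palindromic form GTCTAGAC, and matches are in capitals. The sequences, on GRCm38.p6 and in the direction of the gene, come from chr7:25686752-25687001 (plus strand) and chr12:119238277-119238526 (minus strand).
Tgfb1: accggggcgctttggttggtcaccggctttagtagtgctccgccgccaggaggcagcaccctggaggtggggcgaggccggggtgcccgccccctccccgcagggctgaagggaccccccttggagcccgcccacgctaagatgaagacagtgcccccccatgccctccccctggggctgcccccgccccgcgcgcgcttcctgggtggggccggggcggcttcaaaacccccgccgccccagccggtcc
Itgb8: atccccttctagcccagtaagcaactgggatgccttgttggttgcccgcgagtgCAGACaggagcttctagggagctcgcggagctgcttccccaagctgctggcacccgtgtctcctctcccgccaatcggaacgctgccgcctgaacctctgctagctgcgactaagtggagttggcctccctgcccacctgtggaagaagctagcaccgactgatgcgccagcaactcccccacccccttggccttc

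*Itgb8* had 1 CAGAC match, beginning 196 bases before the start, and *Tgfb1* had 0. A match is common, present in 42.19% of 32851 RefSeq promoters searched over the same length, while GTCTAGAC was present in 0.17% of them and in neither gene. Such matches describe the letters only. The upstream stretch of *Tgfb1* was 75.2% G and C and that of *Itgb8* 62.4%, beside a median of 52.4% over all promoters. Of the 10 genes, 6 were searched. *Lrrc32* and *Skil* had no entry among the RefSeq promoters. *Smad2* and *Smad7*, both on chromosome 18, were left out of the search, so whether they hold a match is not known here. CAGAC was also present once before *Tgfbr2* and before 1 of 2 starts of *Tgfbr1*, and GTCTAGAC before none of the 6.

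The receptor genes were expressed unequally. *Tgfbr2* (ENSMUSG00000032440, chromosome 9, 116087695 to 116175363, GRCm38) was at 282.2 and 202.0 CPM in WT and at 211.8 and 185.1 CPM under the TfR1-deficient label. WT replicate 1 was high and the other 3 libraries lay close together. The log2 fold change was -0.29 (standard error 0.21, 95% interval -0.81 to 0.24, edgeR adjusted p = 0.949), and -0.02 without WT replicate 1. Between the pair of libraries with few macrophage transcripts it was 0.06.

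*Tgfbr1* (ENSMUSG00000007613, chromosome 4, 47353222 to 47414926, GRCm38) was at 76.5 and 76.8 CPM in WT, the closest pair of replicates of any member. The libraries labelled TfR1-deficient were at 84.9 and 37.1 CPM, so replicate 1 lay above WT and replicate 2 at less than the level of any other library. The log2 fold change was -0.33 (standard error 0.39, 95% interval -1.32 to 0.66, edgeR adjusted p = 0.955). This value rests on TfR1-deficient replicate 2, the library with the most macrophage transcripts, and was 0.14 both without it and between the pair of libraries with few macrophage transcripts. Without TfR1-deficient replicate 1 it was -1.05, past the unadjusted call (edgeR adjusted p = 0.999). The ratio of *Tgfbr2* to *Tgfbr1* counts was 3.69 and 2.63 in WT and 2.5 and 4.99 under the TfR1-deficient label (exact two-sided permutation p = 1.0). The ratio was higher in the macrophage-rich library of each genotype, and the part of those transcripts was not tested.

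Of the SMADs phosphorylated by the receptor, *Smad2* (ENSMUSG00000024563, chromosome 18, 76241090 to 76311748, GRCm38) was at 55.4 and 64.8 CPM in WT and at 52.4 and 44.0 CPM under the TfR1-deficient label. The groups were separate by a narrow margin. The log2 fold change was -0.32 (standard error 0.17, 95% interval -0.76 to 0.12, edgeR adjusted p = 0.921). It was -0.31 between the pair of libraries with few macrophage transcripts and from -0.45 to -0.20 with 1 library left out, so it stayed below 0 in each of these fits.

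*Smad3* (ENSMUSG00000032402, chromosome 9, 63646766 to 63757994, GRCm38) was the steadiest member, at 33.9 and 36.0 CPM in WT and at 40.1 and 33.3 CPM under the TfR1-deficient label. The groups overlapped. Its log2 fold change was 0.07 (standard error 0.19, 95% interval -0.40 to 0.54, edgeR adjusted p = 0.987).

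Among the inhibitors, *Smad7* (ENSMUSG00000025880, chromosome 18, 75367365 to 75395935, GRCm38), itself a gene that TGF-beta signalling switches on, varied most of the 10 over the 4 libraries in proportion to its mean. It was at 22.1 and 45.1 CPM in WT and at 41.3 and 23.8 CPM under the TfR1-deficient label. The low value of each genotype came from the macrophage-rich library and the genotypes spanned nearly the same range. The log2 ratio of WT replicate 1 to WT replicate 2 was -1.02, while the log2 fold change between the genotypes was -0.04 (standard error 0.43, 95% interval -1.15 to 1.06, edgeR adjusted p = 0.997). The sign turned with the library left out, to 0.56 with WT replicate 2 left out and to 0.29 with TfR1-deficient replicate 2 left out.

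*Ski* (ENSMUSG00000029050, chromosome 4, 155154075 to 155222535, GRCm38) was at 110.8 and 148.3 CPM in WT and at 164.1 and 138.9 CPM under the TfR1-deficient label. The groups overlapped, and the log2 fold change was 0.23 (standard error 0.20, 95% interval -0.28 to 0.73, edgeR adjusted p = 0.95), or 0.04 without WT replicate 1. *Skil* (ENSMUSG00000027660, chromosome 3, 31095058 to 31122923, GRCm38) was at 164.5 and 223.1 CPM in WT and at 190.9 and 130.2 CPM under the TfR1-deficient label. In each genotype the macrophage-rich library was the lower one. Its log2 fold change was -0.27 (standard error 0.25, 95% interval -0.92 to 0.38, edgeR adjusted p = 0.954). It was -0.03 without TfR1-deficient replicate 2, -0.57 without TfR1-deficient replicate 1 and -0.47 without WT replicate 1. The summed counts of *Smad7*, *Ski* and *Skil* over those of *Smad2* and *Smad3* gave 3.33 and 4.13 in WT and 4.28 and 3.79 under the TfR1-deficient label, ratios that overlapped (exact two-sided permutation p = 0.667). Over the 3 ratios compared, each Benjamini-Hochberg adjusted exact p was 1.0.

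**Figure D2:**
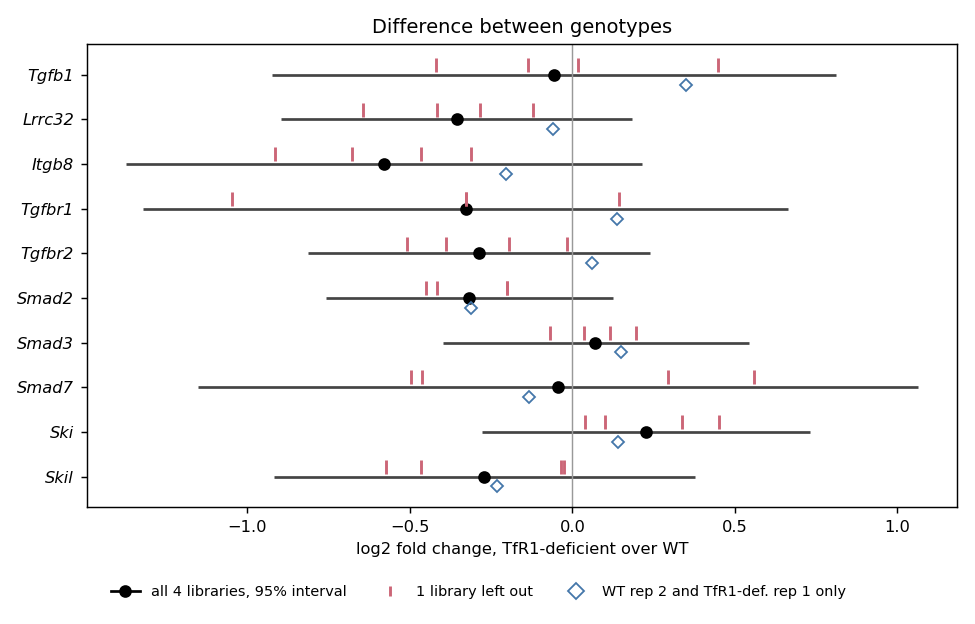
Log2 fold change of TfR1-deficient over WT (horizontal axis) for each gene, with the 95% interval of edgeR's fit as a line, the values with 1 library left out as red ticks and the ratio of TfR1-deficient replicate 1 to WT replicate 2 as blue diamonds. All 10 intervals include 0, and the ticks of *Tgfb1*, *Tgfbr1*, *Smad3* and *Smad7* fall on both sides of it.

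Replicates often differed more than the genotypes did. In 8 of the 10 the larger gap between replicates exceeded the difference between genotypes on log2 CPM, as in 76.5% of all genes tested. Their median gap was 0.54, beside a median genotype difference of 0.28. Of the 10, *Tgfbr1*, *Smad3*, *Smad7*, *Ski* and *Skil* were lower in both macrophage-rich libraries than in both others, a pattern found in 25.5% of all genes tested. Within WT this was a near tie for *Tgfbr1*, at 76.5 and 76.8 CPM, and a small difference for *Smad3*, at 33.9 and 36.0 CPM. How far macrophage RNA or another feature of those libraries contributes was not tested.

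Per kilobase of exon, the 10 genes spanned a wide range of levels in Treg cells. *Lrrc32* had the highest mean at 36.4 ± 7.13 CPM per kilobase (SD, n = 4), and *Tgfbr2* and *Ski* followed at 27.2 ± 5.28 and 25.3 ± 4.03. *Skil* was at 18.3 ± 4.07 and *Smad2* at 15.3 ± 2.41 CPM per kilobase. *Tgfbr1* (10.5 ± 3.29), *Tgfb1* (7.38 ± 1.81), *Smad7* (7.31 ± 2.61) and *Smad3* (6.46 ± 0.557) made up the lower middle. Each gene overlapped its neighbour in this order over the 4 libraries, except *Itgb8*, which at 1.23 ± 0.338 CPM per kilobase lay below *Smad3* in every library. *Foxp3*, on the same scale, was at 35.4 ± 9.25 CPM per kilobase. *Lrrc32* and *Foxp3* overlapped over the 4 libraries.

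**Figure D3:**
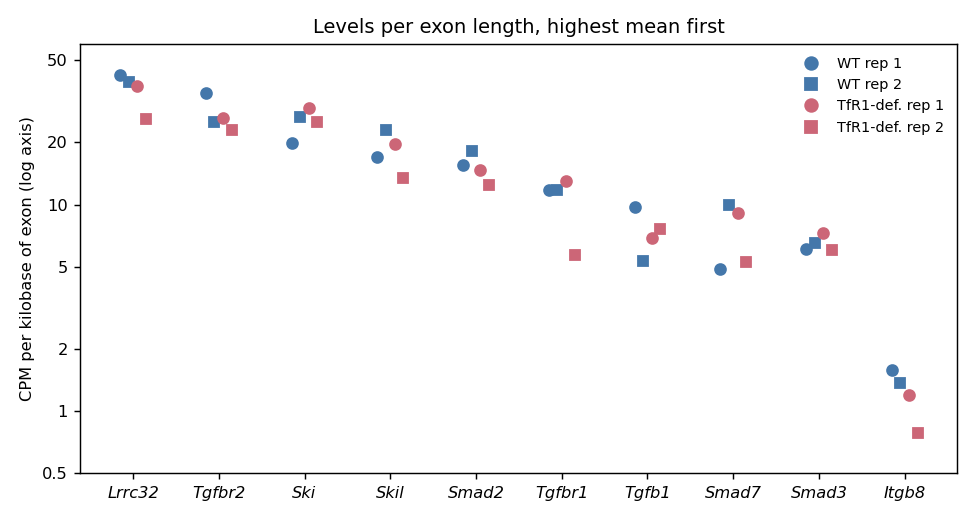
Level per exon length (CPM per kilobase, log axis) of the 10 genes in order of their mean, with 1 point per library (blue WT, red TfR1-deficient, circles replicate 1, squares replicate 2). *Lrrc32* has the highest mean and *Itgb8*, between 0.779 and 1.58, lies below all other genes.

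The rest of the pathway was read from lists written from general knowledge with earlier results of these libraries known. Of 19 further genes of ligands, latency and activation, 10 were tested and 2 were called lower at the unadjusted p, with 0 called higher. The shares over all genes tested were 2.48% lower and 1.6% higher. *Furin*, the protease that cleaves the TGF-beta precursor, was at 50.3 and 35.6 CPM in WT and at 27.0 and 29.9 CPM under the TfR1-deficient label. The log2 fold change was -0.60 (standard error 0.23, edgeR adjusted p = 0.911, DESeq2 adjusted p = 0.859). Without WT replicate 1 the value was -0.31. *Mmp9*, a protease that can release latent TGF-beta, was scarce, at 1.88 and 2.44 CPM in WT and 0.173 and 0.438 CPM under the TfR1-deficient label (log2 fold change -2.82, standard error 0.72). Neither gene overlapped between the groups, but choosing them by the call made this likely. *Nrros*, whose product docks latent TGF-beta on myeloid cells in place of GARP, was at 308.3 and 459.6 CPM in WT and at 465.1 and 452.5 CPM under the TfR1-deficient label. Its 4 values did not follow the macrophage markers, and the groups overlapped. *Itgav*, the gene of the integrin chain that pairs with that of *Itgb8*, had a log2 fold change of -0.06 and was not called.

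Of 11 other receptor genes of the TGF-beta superfamily 7 were tested and 0 were called, with a median log2 fold change of -0.09 that ran from -0.14 to 0.33 with 1 library left out. Of 16 other SMADs and SMAD partners 13 were tested and 1 (7.69%) was called lower, beside 2.48% of all genes tested. *Tgif1*, whose product is a repressor that binds SMADs, was at 141.8 and 118.6 CPM in WT and at 76.9 and 75.7 CPM under the TfR1-deficient label. The groups were well apart, and the log2 fold change was -0.77 (standard error 0.15, edgeR adjusted p = 0.911, DESeq2 adjusted p = 0.0492). It was -0.63 between the pair of libraries with few macrophage transcripts. Of 23 genes that turn over or modulate the pathway 22 were tested and 1 (4.55%) was called lower, beside the same 2.48%. *Ldlrad4*, which encodes a membrane protein that keeps SMAD2 and SMAD3 from the receptor, was at 31.8 and 34.1 CPM in WT and at 17.5 and 21.5 CPM under the TfR1-deficient label. The log2 fold change was -0.76 (standard error 0.21, edgeR adjusted p = 0.911, DESeq2 adjusted p = 0.423).

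Many genes listed as raised by TGF-beta in T cells were lower under the TfR1-deficient label. Of the 20 listed, 17 were tested, and 11 of the 17 (64.7%, beside 2.48% of all genes) were called lower at the unadjusted p, with 0 higher and 0 at edgeR's adjusted p. Their median log2 fold change was -0.85, and in 12 of the 17 WT was the higher group without overlap, beside 18.9% of all genes tested. The difference between this list and the 10 pathway genes was not tested. The list is not independent evidence of this direction. It holds 6 genes known from earlier results of these libraries (*Itgae*, *Il10*, *Ahr*, *Maf*, *Bhlhe40* and *Foxp3*), several of its genes answer to other signals as well, and *Tgif1* and *Ldlrad4* stand in it and in the lists above. Without the 6, 6 of the other 11 were called lower and 0 higher, and the median was -0.76. Between the pair of libraries with few macrophage transcripts, 11 of the 17 were lower and 1 was higher by at least 0.5, beside 10.5% of all genes tested that were lower. The T cell and Treg marker sums given above were lower in the same libraries, and their part in these values was not tested.

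The called genes with the smallest p, beside *Tgif1*, were *Itgae*, *Ccr8*, *Il10* and *Bhlhe40*. *Itgae*, the gene of the integrin chain CD103, was at 59.1 and 47.0 CPM in WT and at 18.3 and 10.6 CPM under the TfR1-deficient label (log2 fold change -1.87, standard error 0.32, DESeq2 adjusted p = 0.000144). *Ccr8*, a chemokine receptor gene of activated Treg cells, was at 78.2 and 68.3 CPM in WT and at 41.0 and 40.2 CPM in the other group (log2 fold change -0.85, standard error 0.15, DESeq2 adjusted p = 0.0284). *Il10*, the gene of a suppressive cytokine, was at 12.0 and 5.53 CPM in WT and at 1.21 and 1.17 CPM in the other group (log2 fold change -2.88, standard error 0.52, DESeq2 adjusted p = 0.00487). *Bhlhe40*, the gene of a transcription factor of activated T cells, was at 157.2 and 188.3 CPM in WT and at 78.0 and 45.2 CPM in the other group (log2 fold change -1.49, standard error 0.29, DESeq2 adjusted p = 0.00136). WT was the higher group without overlap in each, beside 18.9% of all genes tested, but choosing them by small p made this likely. For each, edgeR gave an adjusted p of 0.911. *Gpr15*, a receptor gene for homing to the colon, and *Nt5e*, the gene of the ectoenzyme CD73, were among the other called genes, with log2 fold changes of -1.56 and -1.07. Their DESeq2 adjusted p-values were 0.0559 and 0.0939.

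Of the genes on this list that were not called, *Klf10*, an early target of the pathway, had a log2 fold change of 0.02. *Pmepa1*, which like *Smad7* is induced by TGF-beta and acts back on it, was also not called, at 0.09. *Smad7* itself stands among the 10 pathway genes and is not counted in this list. It was not called either, with a log2 fold change of -0.04. *Tgfbi*, a further target in many tissues, had its counts mostly in the macrophage-rich libraries, with 67 and 0 counts in WT and 3 and 177 counts in the other group.

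Genes listed as lowered by TGF-beta in T cells were not called higher. Of the 12 listed, 11 were tested, 0 were called higher and 1 (9.09%), *Ifng*, lower. Over all genes tested 1.6% were called higher and 2.48% lower. *Ifng*, the gene of interferon gamma, was at 16.3 and 8.91 CPM in WT and at 2.13 and 5.91 CPM under the TfR1-deficient label (log2 fold change -1.65, standard error 0.60, edgeR adjusted p = 0.911, DESeq2 adjusted p = 0.514). The median of the 11 was -0.20, or -0.32 with TfR1-deficient replicate 1 left out and -0.07 with TfR1-deficient replicate 2 left out. In 4 of the 11 WT was the higher group without overlap, beside 18.9% of all genes tested. The reverse held for 2, *Eomes* and *Gzma*, beside 16.0%. Both were scarce, *Eomes* at 1.06 and 1.125 CPM in WT and 2.25 and 2.41 CPM in the other group (log2 fold change 1.08, standard error 0.485). *Gzma* was at 1.15 and 0.375 CPM in WT and 1.325 and 1.31 CPM in the other group.

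**Figure D4:**
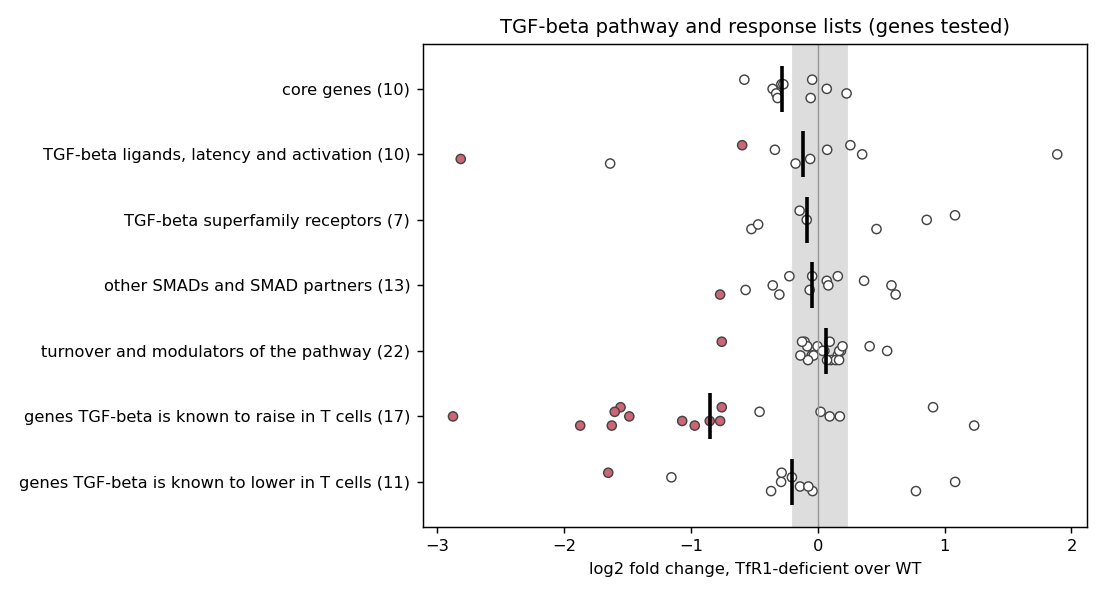
Log2 fold change of TfR1-deficient over WT (horizontal axis) of each tested gene, by list with the number tested in brackets; filled points were called at the unadjusted p, black bars are medians and the grey band spans the quartiles of all genes tested (-0.20 to 0.23). The 10 core genes hold no filled point, while 11 of the 17 genes listed as raised by TGF-beta are filled and lie to the left.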

How the data were processed

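Treg cell RNA was measured in 4 libraries, 2 of each genotype. Per the labels, reads were trimmed with Trim Galore 0.6.7, mapped with STAR 2.7.9a and counted with featureCounts on mm10, while the study's methods name mm9; of the identifiers, 14930 are not in GENCODE vM1 on mm9, so coordinates are those of RefSeq on GRCm38.p6 (mm10). The authors deposited raw counts per Ensembl gene, not normalized or pooled; strand setting and annotation release are not given in the sources used here. Symbols were matched through GENCODE vM1 identifiers (32799 of 47729), whose exon lengths served for levels per kilobase. *Itgb8*, *Tgfbr1*, *Tgfbr2*, *Smad3* and *Smad7* overlap a RefSeq pseudogene or lncRNA, whose reads cannot be told apart without strand. CPM values use TMM factors; log2 CPM has a prior count of 2.

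Genes that passed filterByExpr (12536) were tested with edgeR 4.0.16 (R 4.3.3), quasi-likelihood, genotype as the only term, Benjamini-Hochberg over all genes; calls needed a change of 0.5 or more on the log2 scale. The error of a fold change was taken from F, as the log2 value over its root. DESeq2 1.42.0, other scalings and filters, a replicate block and leaving out libraries were alternatives. The scripts were tested on simulated counts. Counting error was at most 9.21% of the lowest count of a pathway gene. Named genes were *Tfrc*, *Foxp3*, *Csf1r*, the 10, list genes past the unadjusted call, at most 5 per list and direction, and the 3 nearest in pattern to the gene with the smallest p. *Nt5e*, *Gpr15*, *Klf10*, *Pmepa1*, *Tgfbi*, *Nrros*, *Itgav*, *Ctla4*, *Eomes* and *Gzma* were named after their values were seen. The genes and lists were chosen with earlier results of these data known. Results for some list genes are not reported here.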

Additional observations from a re-analysis of the deposited data

How the results depend on the processing

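Under the planned tests, scalings, filters and the replicate block, 59 of 60 log2 fold changes of the 10 genes kept their sign with adjusted p-values from 0.848 to 1.0 over these fits and those with a library left out; the exception was *Tgfb1*, at -0.06, which was 0.004 with the replicate block. With 1 library left out, where the lone library of a genotype is assumed to vary like the others, 34 of 40 values kept their sign, and *Tgfb1* ran from -0.42 to 0.45, *Tgfbr1* from -1.05 to 0.14, *Smad3* from -0.07 to 0.20 and *Smad7* from -0.50 to 0.56. The number of the 10 called lower at the unadjusted p, 0 with all libraries, ran from 0 to 2, the 2 being *Lrrc32* and *Tgfbr1* without TfR1-deficient replicate 1. Over all genes, 311 were lower and 200 higher at the unadjusted p. These were 141 and 70 with the replicate block and 104 and 91 with a minimum log2 fold change of 1; 650 were higher with no filter beyond 1 count in any library, and the lower count ran from 140 (without WT replicate 1) to 372 with 1 library left out. At the adjusted p, 44 genes were called by DESeq2's Wald test and 262 with no filter, beside 0. The cause was not tested. Same-numbered libraries did not deviate from their group means in the same direction (correlation of same-numbered deviations -0.61). That value cannot show whether same-numbered libraries were prepared together, because WT replicate 1 and TfR1-deficient replicate 2 share high macrophage transcripts. A crossed pairing of WT replicate 1 with TfR1-deficient replicate 2, chosen after seeing the data, gave 519 lower and 596 higher genes and 360 at the adjusted p, with 1 of the 10, *Itgb8*, lower at the unadjusted p. Between the 2 libraries with few macrophage transcripts, also chosen after seeing the data, 3 of the 10 turned sign, *Tgfb1* to 0.35, *Tgfbr1* to 0.14 and *Tgfbr2* to 0.06. The median of the turnover and modulator list, 0.06, ran from -0.13 to 0.14 with 1 library left out. The number of genes listed as raised by TGF-beta and called lower was 10 or 11 in each planned fit with a minimum change of 0.5.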
